A study of Rattus norvegicus with 20 samples.

Results

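The comparison described here is the change, between day 7 and day 21, of the ratio of gene expression in sprouting over non-sprouting cortical neurons. It used all 20 arrays of the series, which came from 10 rats aged 2 years, 5 at day 7 and 5 at day 21. In each rat cholera toxin B, a tracer that axons carry back to the cell body, was placed at the same spot of the cortex bordering a stroke on 2 occasions and in 2 colours. The survival period between the tracers was 7 days in the day 7 cohort and 21 days in the day 21 cohort, and the neurons were taken 7 days after the later tracer. The cohorts were separate animals, so no rat was measured on both days, and every rat carried a stroke and both tracers. About 300 neurons of each of 2 kinds, labelled sprouting and non-sprouting, were captured by laser from each rat and amplified in 2 rounds of T7 transcription. Both pools of a rat were hybridised together on a 2-colour Agilent array, once with the sprouting pool labelled with Cy5 and once with the pools in the opposite dyes. A rat therefore gave 1 value per gene, the mean log2 ratio over its 2 arrays, positive where the signal was higher in sprouting neurons. Each ratio below is on this log2 scale. A difference between days is the mean ratio of the 5 day 21 rats minus that of the 5 day 7 rats.

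Neurons near a cortical stroke can grow new axon branches into the surrounding tissue, and the response is known to unfold in stages that begin with a growth programme and proceed to synapse formation. Growth cone proteins, receptors for guidance cues and for inhibitors in myelin, trophic factors, and chromatin regulators that set which genes can be read are all known parts of axon growth. The interaction of cell type and day asks whether what sets sprouting neurons apart is the same early and later. A gene whose ratio has 1 sign in every rat of both cohorts and a gene whose ratio changes sign between the cohorts are the opposite ends of that question.

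Of the probes, 34231 were well above background often enough to be tested, and they gave 31106 features with a fitted day difference, 13604 of them with a gene name. A ratio in all 10 rats was present for 26015 features, 11425 of them named, and the sign classes were counted over these. The share of gene spots well above background was 69.8% to 95.5% per array for red and 20.8% to 95.2% for green. The lowest was the dye-swap array of day 21 replicate 4, whose forward and turned dye-swap ratios had a correlation of -0.026 across probes, against 0.24 to 0.88 in the other 9 rats. The spread of ratios over features differed between rats, with an SD of 0.37 in day 7 replicate 1, 0.27 in day 7 replicate 2, 0.34 in day 21 replicate 5, and 0.13 to 0.24 in the other 7. Rbfox3 and Snap25, which mark neurons, were well above background in both pools on all 20 arrays. So were Mbp of oligodendrocytes, Slc1a3 and Gja1 of astrocytes and Aif1 and Cd68 of microglia, so the captured pools held RNA of other cells too. A difference in the number of such cells and a difference in RNA per cell cannot be told apart in these pools. Files recorded 5 scan batches, and only 1 of them held both days, with 2 day 7 rats and 1 day 21 rat.

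No feature passed an adjusted p of 0.05 for the day difference in limma (0 of 31106, 0%), and the smallest adjusted p was 0.336. At an unadjusted p under 0.05 there were 1295 features (4.16%). Of these, 770 (2.48%) had a lower and 525 (1.69%) a higher ratio at day 21. The median difference over all features was -0.0023, with 15274 features above 0 and 15832 below. Across features, which are not independent replicates, day 7 and day 21 means correlated with r = 0.00057 (Pearson) and rho = 0.029 (Spearman). The genes named in the following are therefore described by their values in each rat, and none of their day differences passed the test.

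The sign of the ratio was opposite in the cohorts for 58 of the 26015 features (0.223%). In 40 of them (0.154%) the ratio was above 0 in the 5 day 7 rats and below 0 in the 5 day 21 rats, and in 18 (0.0692%) the reverse held. This 40 to 18 split was 28 to 27 with Feature Extraction's own ratios, 13 to 18 without background correction, 5 to 7 with a stricter filter on dim probes and 29 to 43 on the dye-swap arrays alone. The ratio had 1 sign in all 10 rats for 124 features (0.477%), above 0 in 55 (0.211%) and below 0 in 69 (0.265%). The 10 ratios of a feature did not overlap between days for 248 (0.953%), lower at day 21 in 162 (0.623%) and higher in 86 (0.331%), a split that was 115 to 121 with Feature Extraction's ratios and 95 to 104 without background correction. The sign classes are defined by these ratios, so their members' ratios are given as a description and with no test of their own.

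**Figure D1:**
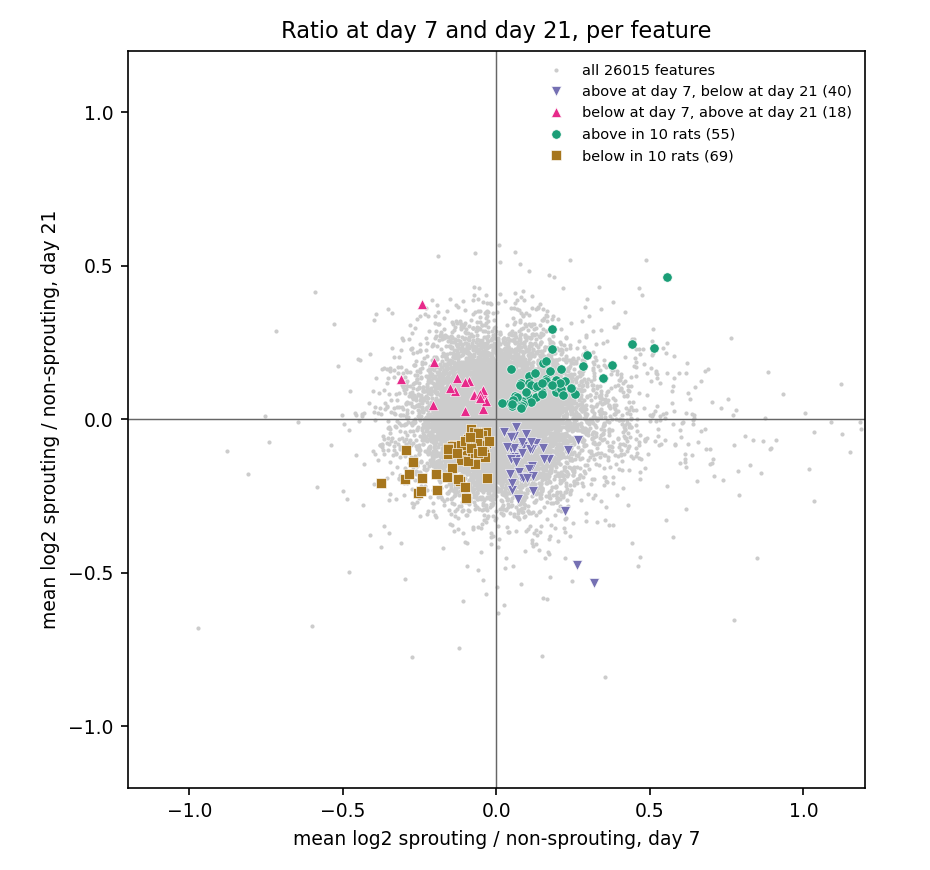
Mean log2 ratio of sprouting over non-sprouting neurons at day 7 (horizontal axis) and day 21 (vertical axis) for 26015 features with a value in 10 rats, 11 of them outside the plotted range of 1.2. Coloured symbols mark the 40 and 18 features whose sign was opposite in the cohorts, in the lower right and upper left, and the 55 and 69 with 1 sign in all 10 rats, in the upper right and lower left.

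Features whose sign reversed were dimmer than the rest. Their median log2 intensity was 6.85 where the ratio went from above to below 0 and 6.86 where it went from below to above, against 7.36 for all features with 10 values. Both channels were well above background on at least 15 of 20 arrays for 42.5% and 61.1% of them, against 74.1% of all. Features above 0 in all 10 rats were the brightest class, with a median of 9.23, and 18.2% of them were saturated on at least 1 array against 1.5% of all. Features below 0 in all 10 rats had a median of 7.06 and no saturated spot. The median size of the mean ratio was 0.085 at day 7 and 0.13 at day 21 for the class above and then below 0, and 0.096 and 0.090 for the class below and then above, against 0.049 on each day over all features.

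The classes also differed in how often single arrays bore out the rat's sign. Of 20 arrays, the median feature had the sign of its class on 15.5 where the ratio went from above to below 0, on 14 where it went from below to above, on 17 where it was above 0 in 10 rats and on 15 where it was below. On all 20 arrays it was found for 2, 2, 2 and 1 features of these classes. A rat's ratio is the mean of its 2 arrays, so the count could not fall below 10 of 20 in any class. These arrays also defined the classes, so the counts are a description and no separate support. Some genes had a further tested probe. Of 6 other probes of the reversed genes 0 repeated the reversal in all 10 rats, and of 22 other probes of the genes with 1 sign 1 kept it in all 10. The limit at 0 is sharp while the ratios are not. Among well-measured genes Olr1093 lay just inside the reversed class, with 0.0015 in day 21 replicate 3. Gosr2 lay just outside it, with -0.00045 in day 21 replicate 1, and so did Toporsl, with 0.0020 in day 21 replicate 3. Of all features, 279 and 220 missed the 2 reversed classes by a single rat.

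Of the 58 reversed features 18 had a gene name, and 10 of these were well above background in both channels on at least 15 arrays and saturated on at most 2. The other 8 named ones, Otp, Slc16a14, Or2t29, Vom2r6, Rsu1, Cbfa2t2, Lypd8l1 and Or2ak5, were dimmer and are only listed. Of the 10, Pclo, Nat10, Ppm1d, Ptprt and Olr1093 did not pass the stricter filter on dim probes. That filter asked for at least 4 rats above background in both pools and on both days. Atrx had the widest reversal of the 10. It encodes a chromatin remodeller that places histones at heterochromatin and is mutated in a syndrome of intellectual disability. Its ratios were 0.51, 0.24, 0.37, 0.27 and 0.20 in the day 7 rats and -0.55, -0.27, -0.42, -0.56 and -0.87 in the day 21 rats. Every day 7 rat was above and every day 21 rat below 0. The difference was -0.85 ± 0.11 (SE, limma adjusted p = 0.336), and all 20 arrays had the sign of their day. Forward arrays gave 0.31 at day 7 and -0.54 at day 21, and turned dye-swap arrays 0.32 and -0.53. Within the scan batch of both days the difference was -0.78.

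The levels of Atrx in each pool stand behind these ratios. In sprouting neurons its log2 intensity was 11.65, 8.15, 10.95, 11.01 and 11.46 in the day 7 rats and 10.25, 10.43, 10.88, 10.72 and 10.93 in the day 21 rats. In non-sprouting neurons it was 11.14, 7.91, 10.58, 10.74 and 11.26 at day 7 and 10.80, 10.70, 11.30, 11.28 and 11.80 at day 21. Replicate 2 of day 7 was far below the other rats in both pools alike, so that its ratio was ordinary while its level was not. The median over rats lay 0.29 lower at day 21 in the sprouting pool and 0.54 higher in the non-sprouting pool. Without that rat, a choice made after seeing the data, the changes were -0.51 and 0.34, so which pool moved further depended on it. Levels of different rats come from different arrays and carry array effects that the ratio within an array does not. The other 2 tested Atrx probes had differences of -0.14 and -0.28 and did not repeat the reversal.

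Pclo encodes piccolo, a very large scaffold protein of the presynaptic active zone. Its ratios were 0.66, 0.29, 0.14, 0.09 and 0.13 at day 7 and -0.14, -0.34, -0.28, -0.78 and -0.83 at day 21. The widest values came from day 7 replicate 1 and day 21 replicates 4 and 5, and the cohorts did not overlap. The difference was -0.73 ± 0.16 (SE), the sign held on 19 of 20 arrays, and within the scan batch of both days it was -0.24. Pclo's median level in sprouting neurons was 7.53 at day 7 and 7.66 at day 21, and in non-sprouting neurons 7.41 and 8.13. The median change was 0.12 in the sprouting and 0.71 in the non-sprouting pool, and -0.074 and 0.53 without day 7 replicate 2.

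Eif2ak1 encodes the haem-regulated kinase that slows translation under stress. Its ratios were 0.11, 0.06, 0.13, 0.10 and 0.17 at day 7 and -0.15, -0.08, -0.09, -0.10 and -0.35 at day 21. They were small and close together, apart from day 21 replicate 5. The difference was -0.27 ± 0.059 (SE), all 20 arrays had the sign of their day, and within the scan batch of both days it was -0.28. Its median level lay 0.056 higher at day 21 in sprouting and 0.30 higher in non-sprouting neurons.

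Nat10, an acetyltransferase that modifies cytidines in RNA, had ratios of 0.09, 0.04, 0.03, 0.02 and 0.16 at day 7 and -0.05, -0.19, -0.26, -0.50 and -0.30 at day 21. Its difference was -0.33 ± 0.078 (SE) over all rats and -0.14 within the scan batch of both days. Ppm1d, a phosphatase that switches off p53 and DNA damage signalling, had 0.17, 0.11, 0.11, 0.10 and 0.04 on day 7 and -0.05, -0.08, -0.04, -0.51 and -0.14 on day 21. Its difference was -0.27 ± 0.088 (SE), and -0.12 within the batch. The day 21 mean of Ppm1d rested largely on replicate 4, the rat with the weakest dye-swap array, and its forward arrays averaged -0.04 at day 21 against -0.29 on the turned dye-swap arrays.

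Of the 5 genes that went from below to above 0, Ctnnal1 had the widest shift. It encodes alpha-catulin, a relative of the catenins of cell adhesion. Its ratios were -0.13, -0.89, -0.31, -0.18 and -0.05 at day 7 and 0.04, 0.11, 0.02, 0.31 and 0.19 at day 21. The difference was 0.44 ± 0.15 (SE), with day 7 replicate 2 the lowest rat by a wide margin, and the sign held on all 20 arrays. Within the scan batch of both days it was 0.15. Its median level was 0.085 higher at day 21 in sprouting and 0.21 lower in non-sprouting neurons.

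Bap1, the nuclear deubiquitinase and tumour suppressor that removes ubiquitin from histones, had -0.08, -0.36, -0.17, -0.07 and -0.0022 at day 7. At day 21 it had 0.04, 0.10, 0.11, 0.03 and 0.19. Its difference was 0.23 ± 0.071 (SE), and 0.07 within the batch. Lrfn1, a synaptic adhesion protein of the postsynaptic side, differed by 0.16 ± 0.048, and Ptprt, a receptor phosphatase of neurons, by 0.13 ± 0.048 (SE). Olr1093, an olfactory receptor gene, differed by 0.095 ± 0.042 (SE), with -0.011 on the forward arrays alone. These 3 had the sign of their day on only 14, 15 and 14 of 20 arrays. Within the scan batch they differed by 0.09, 0.04 and 0.14. In limma the 9 genes other than Atrx had an adjusted p of 0.922.

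**Figure D2:**
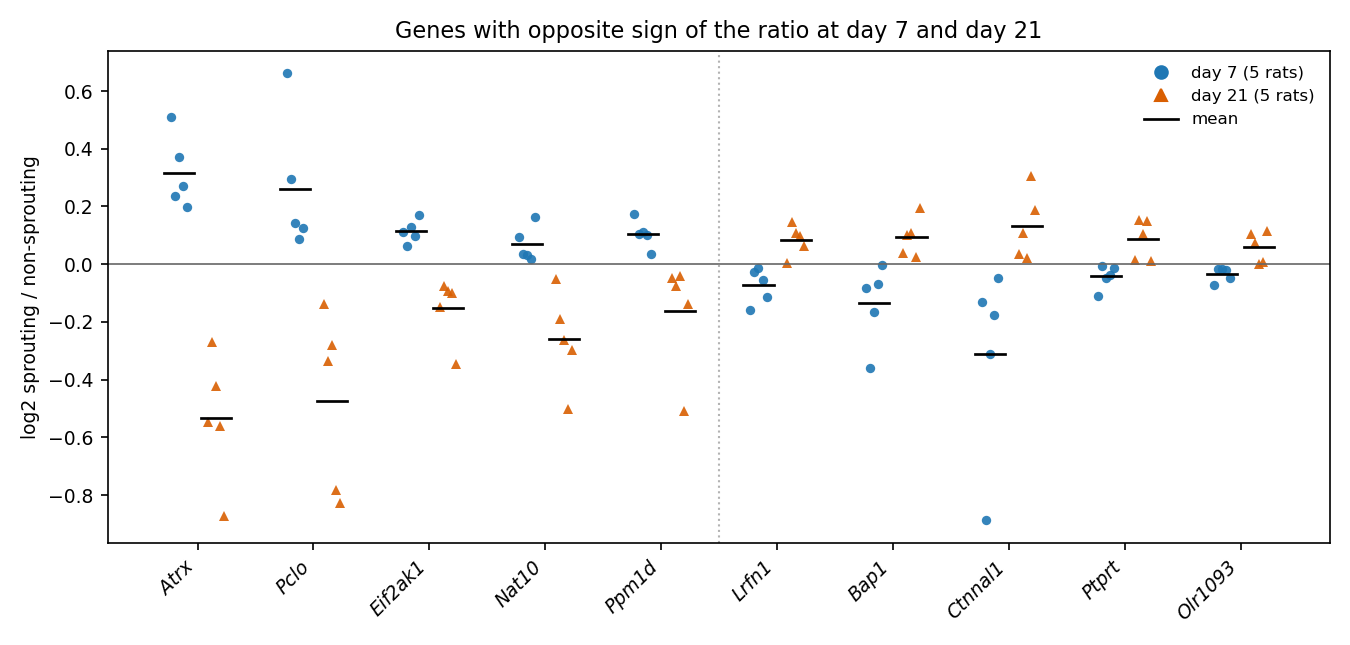
Log2 ratio of sprouting over non-sprouting neurons in each rat for the 10 well-measured genes with opposite sign in the cohorts; circles are day 7 rats, triangles day 21 rats, bars their means. Left of the dotted line the 5 genes lie above 0 at day 7 and below 0 at day 21, with Atrx and Pclo the widest, and right of it the reverse holds.

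The pool whose level moved further was counted in each class. These levels come from different rats on different arrays and carry array effects, so the counts are a description. Taking medians over rats, the level in non-sprouting neurons moved further between the cohorts than that in sprouting neurons for 21 of the 40 features above and then below 0. It did so for 13146 of 26015 features in all, a share close to that of these 40, and for 13 of the 18 below and then above 0. Among the 162 features lower at day 21 without overlap the sprouting pool moved further for 94 and the non-sprouting pool for 68, and among the 86 higher ones for 26 and 60. For the 40 features above and then below 0 the median change was -0.11 in the sprouting and 0.056 in the non-sprouting pool. Of the 18 below and then above, 2 had a higher level in non-sprouting neurons at day 21, and the median change was -0.21 in the non-sprouting and -0.020 in the sprouting pool. Over all features these medians were -0.031 and -0.045.

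Genes with 1 sign in all 10 rats held ratios of similar size on both days. The median size was 0.15 at day 7 and 0.11 at day 21 in the class above 0, and 0.091 and 0.10 in the class below. Of these 124 features 59 were named and 42 well measured, and the 8 of smallest p in each direction are described. Mrpl18, a protein of the large mitochondrial ribosomal subunit, had 0.16, 0.17, 0.14, 0.21 and 0.14 on day 7 and 0.12, 0.07, 0.08, 0.25 and 0.13 on day 21. The mean over both days was 0.15 ± 0.024 (SE, limma adjusted p = 0.342). Its day difference was -0.031 ± 0.047 (SE), less than the spread between rats. Another tested Mrpl18 probe had means of 0.13 at day 7 and -0.0048 at day 21. Mrps35 of the small mitochondrial subunit had a mean of 0.20 ± 0.051, Imp3, needed to process ribosomal RNA in the nucleolus, 0.17 ± 0.043, and Emc6, which helps membrane proteins enter the endoplasmic reticulum, 0.12 ± 0.028 (SE).

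Abcc2, an organic anion export pump, had the highest mean of this group, 0.24 ± 0.042 (SE), from 0.09 to 0.26 at day 7 and from 0.12 to 0.55 at day 21. All 20 arrays of Abcc2 were above 0. Jak1, the kinase behind many cytokine receptors, had 0.39, 0.30, 0.21, 0.13 and 0.03 on day 7 and 0.18, 0.06, 0.13, 0.01 and 0.10 on day 21. Its cohorts overlapped, and the mean was 0.15 ± 0.035 (SE). The other tested Jak1 probe went the other way, with means of -0.029 at day 7 and -0.095 at day 21. Hmgn2, a nucleosome-binding protein, had a mean of 0.12 ± 0.027 and Gsto1, a glutathione transferase, 0.17 ± 0.045 (SE). The other tested Hmgn2 probes had means above 0 on both days. Another Gsto1 probe had means of 0.13 at day 7 and -0.033 at day 21.

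Below 0 in every rat were Ttc33, with a mean of -0.25 ± 0.046, and Ywhae, an adaptor for phosphorylated proteins that is abundant in neurons, with -0.19 ± 0.047 (SE). Ywhae had -0.30, -0.46, -0.13, -0.07 and -0.04 on day 7 and -0.08, -0.14, -0.10, -0.17 and -0.40 on day 21. Its cohorts overlapped fully, and the day difference was 0.020 ± 0.094 (SE). Another tested Ywhae probe differed by 0.16, with means of -0.18 at day 7 and -0.017 at day 21. Cltb, a clathrin light chain, had a mean of -0.12 ± 0.025, Ap4b1, a subunit of the AP-4 adaptor, -0.10 ± 0.026, and Mfn2, which fuses mitochondria, -0.11 ± 0.030 (SE). A dimmer Mfn2 probe had means of 0.015 at day 7 and -0.013 at day 21. Kyat1, an aminotransferase that makes kynurenic acid, had -0.11 ± 0.023, Slc26a8, an anion transporter, -0.12 ± 0.028, and Galnt9, a glycosyltransferase, -0.11 ± 0.026 (SE). Kyat1, Slc26a8 and Galnt9 did not pass the stricter filter on dim probes.

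Of 31106 features 1 passed for the mean of both days in limma (0.00321%), Ccdc171, with an adjusted p of 0.0485, against 2016 (6.48%) at an unadjusted p under 0.05. It was too dim for the naming rule, above background in both channels on 14 arrays, and was chosen for naming once its values had been seen. Its ratios were -0.30, -0.27, -0.43, -0.40 and -0.49 at day 7 and -0.19, -0.11, -0.31, -0.26 and -0.16 at day 21. They were below 0 in 10 of 10 rats, and the day 21 rats lay closer to 0 with overlapping cohorts.

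**Figure D3:**
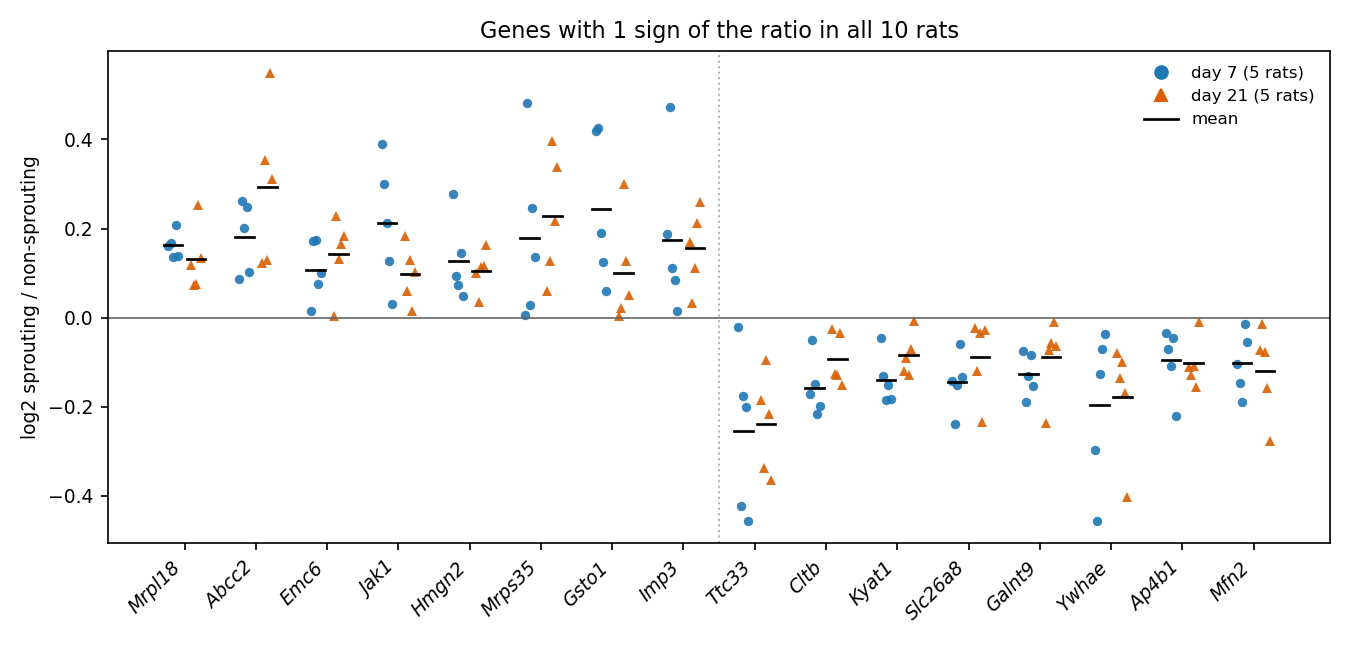
Log2 ratio of sprouting over non-sprouting neurons in each rat for 16 well-measured genes with 1 sign in all 10 rats; circles are day 7 rats, triangles day 21 rats, bars their means. The 8 genes left of the dotted line lie above 0 and the 8 right of it below 0 in every rat, and the cohorts overlap for each gene.

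The 5 genes recalled from the study are described as candidates, and the study may have chosen them on these same samples. Besides Atrx they were Igf1, Lingo1, Lmo4 and Efna5. Igf1, a growth factor that promotes axon growth and survival, had 3.37, 0.97, 0.86, 0.49 and 0.25 on day 7 and -0.05, 0.11, -0.43, 0.15 and 0.07 on day 21. The cohorts did not overlap, and day 7 replicate 1 was far above the rest. Its difference was -1.22 ± 0.50 (SE, limma adjusted p = 0.922), -0.67 without that rat and -0.42 within the scan batch of both days. The shift lay mainly in the sprouting pool, where Igf1 had a median log2 intensity of 10.21 at day 7 and 8.60 at day 21, against 9.35 and 8.83 in the non-sprouting pool. A further Igf1 probe differed by -0.75 and the 2 dimmest ones by -0.0044 and 0.018.

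Lingo1, a co-receptor through which myelin proteins block axon growth, had 0.32, 0.04, 0.24, 0.17 and 0.31 on day 7 and -0.04, -0.12, 0.23, -0.12 and -0.01 on day 21. In 4 of the 5 day 21 rats it was below every day 7 rat, and in replicate 3 it was not. The difference was -0.23 ± 0.082 (SE), and its median level lay 0.18 higher at day 21 in sprouting and 0.49 higher in non-sprouting neurons. Efna5, an ephrin ligand, differed by -0.12 ± 0.086 and Lmo4, a LIM domain cofactor of transcription, by 0.0024 ± 0.18 (SE), both less than the spread between rats. Lingo1 and Efna5 did not pass the stricter filter on dim probes. An exact permutation test over the 10 rats (two-sided, 252 splits) had p = 0.00794 for Igf1 and for Atrx, the lowest value it can reach. Every feature whose cohorts do not overlap reaches that value, and these were 0.953% of the features with 10 values. The test gave 0.0317 for Lingo1, 0.222 for Efna5 and 1 for Lmo4. These p-values were not adjusted over the 5 genes.

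**Figure D4:**
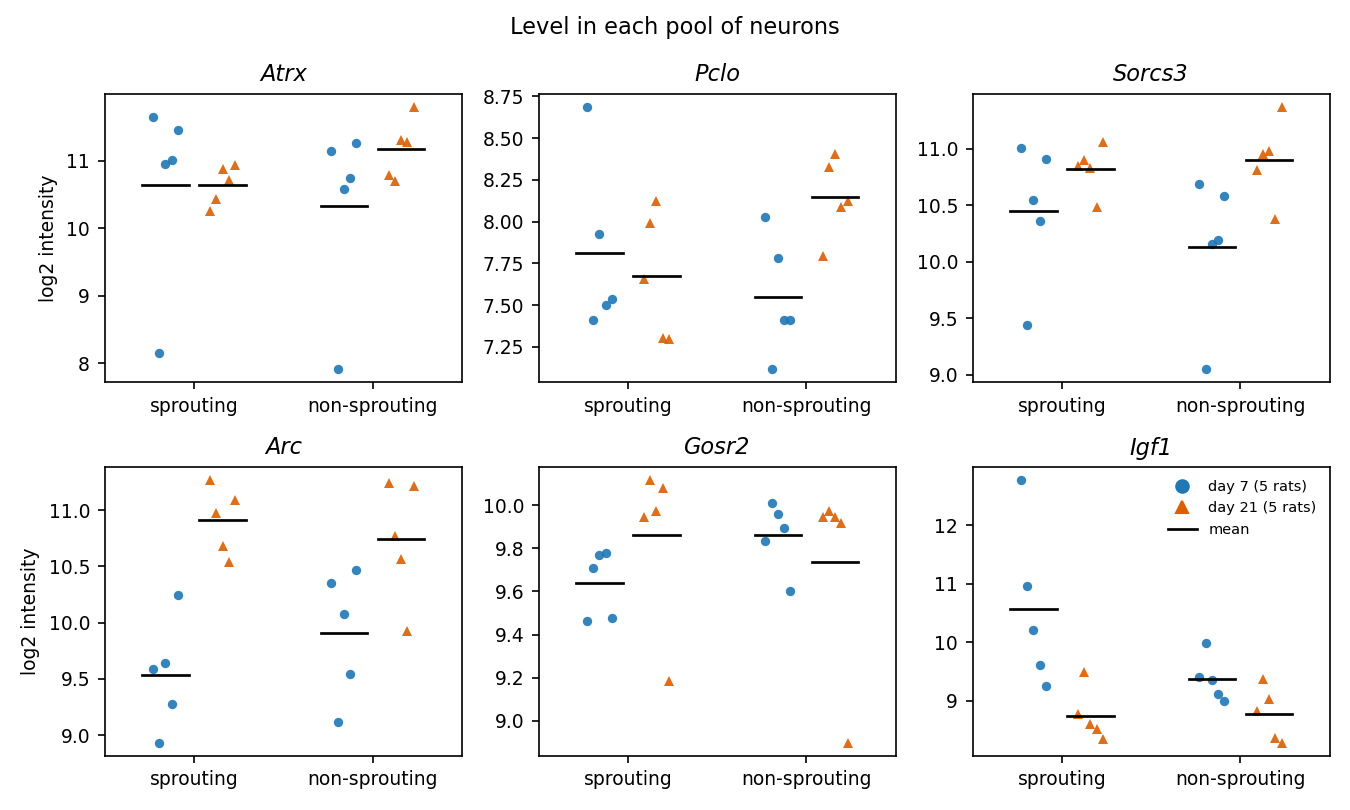
Log2 intensity in the sprouting and the non-sprouting pool of each rat for 6 genes; circles are day 7 rats, triangles day 21 rats, bars their means. Pclo and Sorcs3 lie higher at day 21 mainly in the non-sprouting pool by their medians, Atrx has 1 day 7 rat far below the others in both pools, Igf1 lies lower at day 21 mainly in the sprouting pool, and Arc lies higher at day 21 in both.

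Sorcs3, a sorting receptor of the sortilin family that acts at neuronal synapses, belonged to neither sign class but its cohorts did not overlap. It had 0.31, 0.39, 0.39, 0.17 and 0.33 on day 7 and 0.04, -0.05, -0.16, 0.11 and -0.32 on day 21. Sorcs3 was thus above 0 in every day 7 rat and on both sides of 0 at day 21. The difference was -0.39 ± 0.083 (SE), and -0.21 within the scan batch of both days. Of the 12 tested genes of its family and of retromer, 6 differed upward and 6 downward. Vps26a, a retromer subunit, had -0.16 ± 0.11 and Sorl1 0.10 ± 0.11 (SE).

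Chromatin genes other than Atrx did not share its size. Of 60 tested, Atrx among them, 24 had a difference above and 36 below 0. Their median was -0.016, and 0.026 within the scan batch of both days. At an unadjusted p under 0.05, 4 of the 60, Atrx included, had a lower ratio at day 21, against 2.48% of all features. Among them were Ino80, the motor of a nucleosome remodelling complex, with -0.46 ± 0.13, and Cbx1, a heterochromatin protein, with -0.56 ± 0.24 (SE). Ino80 had 0.39, 0.10, 0.24, -0.03 and 0.42 on day 7 and -0.11, -0.02, -0.05, -0.44 and -0.56 on day 21, so that 1 day 7 rat overlapped with the day 21 rats. Cbx1 went the other way within the scan batch of both days, at 0.25, and 1 of its day 21 rats was above 0.

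Among genes of growth and of its inhibitors more differed downward than upward. Of 39 growth cone and regeneration-associated genes 13 differed upward and 26 downward, with a median of -0.063. The median was -0.017 without day 7 replicate 1 and 0.0029 within the scan batch of both days. Smad1, a mediator of BMP signals that promotes axon regrowth, had -0.51 ± 0.19 and Stat3, the transcription factor downstream of injury cytokines, 0.21 ± 0.099 (SE), while Stmn2, a tubulin-binding protein of growth cones, had 0.14 ± 0.088. Of 25 growth inhibitors and their receptors 6 differed upward and 19 downward, with a median of -0.062. The median was -0.063 within the batch, -0.026 without day 7 replicate 1 and below 0 under all 25 alternatives, which reuse the same rats. By rat the list's median was 0.10, -0.021, -0.0056, -0.026 and 0.039 at day 7. At day 21 it was -0.065, -0.049, -0.023, -0.0049 and -0.057, so the cohorts overlapped. With Lingo1, Tnfrsf19, which can stand in the same receptor complex, had -0.20 ± 0.088, and Ptprs, a receptor for chondroitin sulfate proteoglycans, -0.41 ± 0.20 (SE). Over all features the median difference was -0.0023 and 49.1% lay above 0.

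Guidance genes and trophic factors differed in direction between lists. Of 43 semaphorins, plexins, netrins, slits and their receptors 14 differed upward and 29 downward, with a median of -0.057 that was 0.031 within the scan batch of both days. Robo2, a slit receptor, had -0.29 ± 0.13 (SE). Of 12 ephrins and Eph receptors 9 differed upward and 3 downward, with Epha10 at 0.11 ± 0.053 and Epha4 at 0.12 ± 0.074 (SE). Of 57 growth factors, cytokines and their receptors 26 differed upward and 31 downward. Beside Igf1, Osmr, the oncostatin M receptor, had 0.13 ± 0.051 and Lifr, the receptor of leukaemia inhibitory factor, -0.17 ± 0.077 (SE). Osmr had -0.033 on the forward arrays alone.

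Synaptic genes went both ways. Of 29 active zone genes 14 differed upward and 15 downward. Beside Pclo, Ppfia1, a liprin, had 0.29 ± 0.11 (SE), which was -0.017 as a mean over its probes. Of 58 synaptic vesicle and SNARE genes 27 differed upward and 31 downward. Gosr2, a SNARE of the Golgi, had -0.37, -0.30, -0.19, -0.12 and -0.12 on day 7 and -0.00045, 0.14, 0.03, 0.16 and 0.29 on day 21. The Gosr2 cohorts did not overlap, the difference was 0.35 ± 0.073 (SE), and a further probe of Gosr2 differed by 0.24. Dnm1, the dynamin of synaptic vesicle recovery, had 0.22 ± 0.086 and Syn2, a synapsin, -0.40 ± 0.18 (SE). Of 41 glutamate receptor genes 24 differed upward and 17 downward, with Grm7 at 0.20 ± 0.075 and Gria3 at -0.33 ± 0.16 (SE).

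Immediate early genes, which neurons switch on with activity, included a gene with separate cohorts. Arc, whose protein tunes synaptic AMPA receptors, had -0.76, -0.18, -0.44, -0.26 and -0.22 on day 7 and 0.03, 0.20, 0.11, 0.60 and -0.13 on day 21. Arc was below 0 in every day 7 rat and above 0 in 4 of 5 day 21 rats, and the difference was 0.54 ± 0.15 (SE), 0.27 within the scan batch of both days. Its median level was higher at day 21 in both pools, by 1.38 in sprouting and 0.69 in non-sprouting neurons. Egr1 had a difference of 0.20 ± 0.082 and Nr4a1 of 0.20 ± 0.10 (SE), and both also had higher median levels at day 21 in both pools, by 1.22 and 1.12 for Egr1 and by 0.68 and 0.44 for Nr4a1. Over the 22 tested genes of this list 12 differed upward and 10 downward, with a median of 0.0093 that was 0.037 without day 7 replicate 1 and 0.095 within the batch.

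Cholesterol synthesis genes had the most uniform direction among the lists of cell functions. Of 28 tested, 24 had a higher and 4 a lower ratio at day 21, with a median difference of 0.12, and 5 had a higher ratio at an unadjusted p under 0.05, against 1.69% of all features. The list's median in each rat was -0.17, -0.12, -0.10, -0.09 and -0.09 at day 7 and -0.09, 0.0020, 0.05, 0.02 and 0.06 at day 21. Day 21 replicate 1 was level with the day 7 rats, and it is the rat scanned together with 2 of them. Within that scan batch the list's median difference was 0.011, so day and scan batch cannot be told apart for this list. Hmgcs1, an early enzyme of the pathway, had -0.39, -0.40, -0.29, -0.12 and -0.36 on day 7 and -0.13, -0.06, -0.13, 0.02 and 0.38 on day 21, a difference of 0.33 ± 0.10 (SE). Another probe of Hmgcs1 differed by -0.093. Msmo1, a demethylase of the pathway, had 0.25 ± 0.089 and Lss, which closes the sterol rings, 0.16 ± 0.058 (SE). The cohorts of Lss did not overlap.

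Most microglia and macrophage markers had a lower ratio at day 21, but the list medians of the rats overlapped between days. In day 7 replicate 2 the list's median was -0.28, below every day 21 rat, and in the other day 7 rats it was 0.10 to 0.19. Of 25 tested, 5 differed upward and 20 downward, with a median of -0.25 that was -0.14 without day 7 replicate 1 and -0.17 within the scan batch of both days. Trem2, a lipid receptor of microglia, had 2.00, -0.10, 0.13, 0.06 and 0.23 on day 7 and -0.27, -0.09, -0.51, -0.92 and -0.60 on day 21. Ctsb, a lysosomal protease, differed by -0.30 ± 0.14 (SE) without overlap, by -0.15 without day 7 replicate 1 and by -0.10 within the batch. Tmem119, a marker of resting microglia, differed by 0.18 ± 0.055 (SE). The summed linear level of the markers in sprouting neurons ranged from 55219 to 180210 at day 7, highest in replicate 1, and from 49036 to 55841 at day 21. In non-sprouting neurons it ranged from 49713 to 101606 at day 7 and from 51102 to 59060 at day 21. Of the 25 markers 23 were well above background on at least 15 arrays, and the 7 defining ones were so on 16 to 20 arrays in sprouting and 18 to 20 in non-sprouting neurons. Igf1, which microglia also express, also had a lower ratio at day 21. Day 7 replicate 1 had the highest Igf1 ratio, 3.37, and the highest summed marker level in sprouting neurons. Day 7 replicate 2, the lowest for the list median, had a higher Igf1 ratio than day 7 replicates 3, 4 and 5. The part of these cells in the Igf1 difference was not tested.

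The differences of extracellular matrix genes rested largely on day 7 replicate 1. Of 51 matrix genes 11 differed upward and 40 downward, with a median of -0.19 that was -0.032 without that rat and 0.029 within the scan batch of both days. The median of these genes was 0.98 in that rat and between -0.047 and 0.0031 in the other 4 of day 7. Col1a2, a collagen I chain, had 5.46 in it and -2.69 in day 21 replicate 2, while Itgb3, an integrin subunit, had a difference of -0.19 ± 0.099 and Col6a2 of -0.11 ± 0.058 (SE). Of 75 cytosolic ribosomal protein genes 13 differed upward and 62 downward, with a median of -0.075 that was 0.028 without that rat and -0.11 within the scan batch of both days, which does not hold it. Rpl18 had -0.29 ± 0.20, Rpl14 -0.20 ± 0.15 and Rplp2 -0.22 ± 0.20 (SE).

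Stress genes of the p53 pathway and apoptosis had a difference above 0 in 6 of 27 and below 0 in 21. Their median of -0.063 stayed below 0 under all 25 alternatives, which reuse the same rats. It was -0.047 without day 7 replicate 1. The list's median in each rat was 0.14, -0.052, 0.0074, 0.018 and 0.0018 at day 7. At day 21 it was -0.023, 0.0089, -0.010, -0.083 and -0.035, so the cohorts overlapped. Gadd45b, a growth arrest and DNA damage gene, had -0.32 ± 0.11, Tnfrsf1a, the main tumour necrosis factor receptor, -0.35 ± 0.17, and Ddit3, a stress transcription factor, -0.17 ± 0.11 (SE). In day 7 replicate 1 Tnfrsf1a had 0.97, and in the other 4 rats it lay between -0.19 and 0.32.

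**Figure D5:**
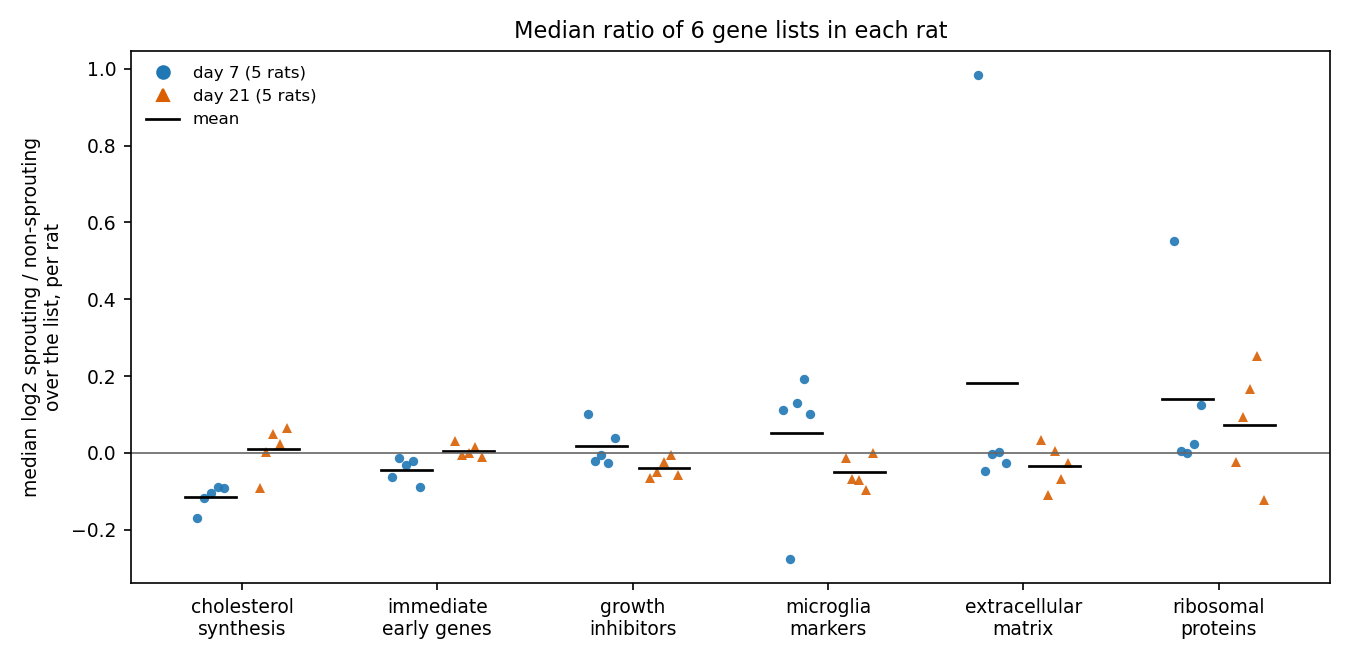
Median log2 ratio of sprouting over non-sprouting neurons over the tested genes of 6 lists in each rat; circles are day 7 rats, triangles day 21 rats, bars their means. Cholesterol synthesis genes lie below 0 in the 5 day 7 rats and near or above 0 in 4 of 5 day 21 rats, and for matrix and ribosomal protein genes day 7 replicate 1 stands apart at 0.98 and 0.55.

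Markers of the other cells in the tissue did not point 1 way. Of 19 astrocyte markers 15 differed upward, with a median of 0.073 that was 0.039 within the batch, Gja1, the main gap junction protein of astrocytes, at 0.21 ± 0.078 and S100b at 0.22 ± 0.12 (SE). Of 19 oligodendrocyte markers 16 differed upward, with a median of 0.11 that was -0.15 within the scan batch of both days. Their median was -0.74 in day 7 replicate 2 and 0.31 in day 7 replicate 3, a wider range than between the cohorts. Of 18 general and glutamatergic neuron markers 7 differed upward and 11 downward, with a median of -0.042 that was -0.12 without day 7 replicate 1 and -0.0097 within the batch. Syt1, the calcium sensor of transmitter release, had -0.61 ± 0.39 (SE), with -2.03 in day 21 replicate 5. Of 16 deep cortical layer markers 12 differed upward, with a median of 0.044 that was 0.020 without day 7 replicate 1 and -0.0023 within the batch, Tle4 at 0.19 ± 0.061 and Fezf2 at 0.16 ± 0.13 (SE). The part of these cells in the gene differences above was not tested.

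Voltage-gated channel and transport genes were split evenly. Of 35 potassium channel genes 16 differed upward and 19 downward, with Kcnd2, a channel of the A current, at -0.50 ± 0.26 (SE). Kcnd2 had 1.36 in day 7 replicate 2 and between 0.04 and 0.38 in the other day 7 rats. Of 27 sodium and calcium channel genes 13 differed upward and 14 downward, with Cacna2d1, the subunit that binds gabapentin, at -0.41 ± 0.17 (SE) and at 0.14 within the scan batch of both days. Of 32 kinesin, dynein and axonal transport genes 16 differed each way, Rhot1, the mitochondrial adaptor Miro, at 0.24 ± 0.11 and Kif3a, a kinesin, at 0.16 ± 0.086 (SE). Rhot1 was below 0 in all 5 day 7 rats, from -0.42 to -0.07, and from -0.14 to 0.40 at day 21.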

How the data were processed

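Deposited scanner files give, per the file headers, spot means and local backgrounds as intensity in both channels, with the flags of Agilent Feature Extraction 9.1.3.1, the tool named in the submitters' processing notes. The deposited log10 ratios of Feature Extraction and the authors' deposited table of log2 ratios, whose normalization and centring are not given in the sources used here, served as alternatives. Another 20 columns in it were left unused. Against the loess values the authors' columns had correlations from 0.892 to 1.00.

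Intensities were background-corrected with normexp (offset 50) and loess-normalized within arrays in limma 3.58.1 (R 4.3.3), with control spots at weight 0 and outlier spots missing. A probe entered the test when, in 1 pool and on 1 day, at least 3 rats had it well above background on both of their arrays, and the brightest probe stood for a gene. Names came from RefSeq (GRCr8) for 19198 of 41012 probes. limma (lmFit, eBayes) fitted both cohorts together with Benjamini-Hochberg adjustment at 0.05; the fit was tested on simulated data. A feature missing a rat was fitted on the others and left out of the sign classes. Pool levels are log2 intensities after Aquantile scaling between arrays.

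Genes were named by rule: well above background on at least 15 arrays, saturated on at most 2, up to 12 per direction of reversal, 8 per direction of 1 sign and 3 per list, by smallest p. A few genes that the rule picks are not reported here. Members and gene lists were chosen with earlier results of these data known. Replicate numbers name rats of separate cohorts and do not pair them. Figures used matplotlib.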

Additional observations from a re-analysis of the deposited data

Results flagged for a closer look

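For 10 genes that met the naming rule the ratio lay on 1 side of 0 in every day 7 rat and on the other in every day 21 rat. Pclo, Nat10, Ppm1d, Ptprt and Olr1093 did not pass the stricter filter on dim probes. The day difference was -0.85 for Atrx, -0.73 for Pclo, -0.27 for Eif2ak1, -0.33 for Nat10 and -0.27 for Ppm1d, and 0.16 for Lrfn1, 0.23 for Bap1, 0.44 for Ctnnal1, 0.13 for Ptprt and 0.095 for Olr1093. None of the 10 passed over all features in limma, and they were picked by this pattern.

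A single rat stood far from the other 4 of its cohort in 19 of 182 groups of 5 values looked at (10.4%). Dixon's test at the 95% level flags about 1 in 20 independent groups drawn from a normal distribution. These groups reuse the same 10 rats, whose spreads differed, and include list medians, so the shares cannot be compared directly. Day 7 replicate 1 was the rat apart in 7 of the 19 groups, with 3.37 for Igf1, 2.00 for Trem2, 0.75 for Ctsb, 5.46 for Col1a2 and 0.30 for Gadd45b. In the same rat the list medians were 0.98 for matrix genes and 0.55 for cytosolic ribosomal proteins. Day 7 replicate 2 stood apart with 1.36 for Kcnd2, -1.30 for Mobp and a list median of -0.28 for microglia markers. At day 21, replicate 5 had -0.35 for Eif2ak1, -0.40 for Ywhae and -0.29 for Ctsb, and replicate 4 had -0.51 for Ppm1d, -0.56 for Itgb3 and -0.20 for Col6a2. Replicate 1 had -0.24 for Galnt9, replicate 2 -2.69 for Col1a2 and replicate 3 0.21 for Lss.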

How the results depend on the processing

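The values of the named genes kept their direction in 2067 of 2092 recomputations over the 25 alternatives. Part of this agreement was fixed in advance, so the count does not measure robustness. The Atrx difference was the same -0.85 without the filter, with the stricter filter, with saturated spots missing and with the replicate block. Genes picked for 1 sign in all rats, or for opposite signs in the cohorts, could not turn when 1 rat was left out. The count of features with an adjusted call for the day difference was 0 in all but 1 of the alternatives. With the 20 arrays entered singly, 1 feature passed in limma, Atrx, with a difference of -0.85 and an adjusted p of 6.2e-05, since the arrays of a rat then count as partly separate. For the mean of both days Abcc2 passed in that setting (adjusted p = 0.034) and Mrpl18 on the dye-swap arrays alone (0.046). Replicate numbers did not pair the rats: same-numbered rats' deviations correlated from -0.20 to 0.035, and 0 of 5 day 7 rats lay closest to their own number. With the replicate block 0 features passed, and 767 had a lower and 413 a higher ratio at an unadjusted p under 0.05.

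The reversed features numbered 31 without background correction and 12 with the stricter filter on dim probes. Features with 1 sign in 10 rats numbered 80 with Feature Extraction's ratios, 55 with the stricter filter, 500 on forward and 850 on dye-swap arrays alone, each of which confounds dye with pool. Features without overlap numbered 57 with the stricter filter and 392 on dye-swap arrays alone. Leaving out 1 rat at a time gave 85 to 161 reversed features, 166 to 443 with 1 sign and 414 to 600 without overlap, since fewer rats have to fit, and 0 adjusted calls each time.

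The Lmo4 difference turned to -0.025 on forward arrays alone, -0.022 with scaling between arrays, -0.038 with array weights and -0.11 with scan batch as a fixed block, and ranged from -0.11 to 0.14 with 1 rat left out. It was -0.049 without day 7 replicate 3, -0.012 without day 7 replicate 4, -0.033 without day 7 replicate 5, -0.11 without day 21 replicate 3, -0.029 without day 21 replicate 4 and -0.043 without day 21 replicate 5. With scan batch as a fixed block, Efna5 turned to 0.040, Col1a2 to 0.32, Cbx1 to 0.25, Vps26a to 0.038, Sorl1 to -0.20, Epha5 to 0.27, Cacna2d1 to 0.14, S100b to -0.22, Mobp to -0.16, Fezf2 to -0.13 and Etv1 to -0.12. Olr1093 turned to -0.011 and Osmr to -0.033 on forward arrays alone, Ppfia1 to -0.017 as a mean over probes and Mobp to -0.0045 with array weights. The causes were not tested. There were 5 rats a day, and the median SD over all features was 0.11 at day 7 and 0.13 at day 21. Small differences could therefore not be detected. Wide ones did not pass in the main fit either, among them those of Atrx (-0.85) and Igf1 (-1.22).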
